A study of Mus musculus with 4 samples.

Results

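Chemokine ligands are small secreted or membrane-held proteins that direct the movement of leukocytes and other cells through receptors of the same family. They were taken here as every gene whose platform symbol begins with Ccl, Cxcl, Cx3cl or Xcl followed by a digit, which gave 33 genes of the 18193 on the arrays. The platform reads these 33 genes with 51 probe sets, and the probe set whose 4 levels averaged highest stood for its gene. A further 4 probe sets carry several gene symbols, among them those of Ccl19, the Ccl21 genes, Ccl27a and Ccl27b, and were not counted because their signal cannot be given to 1 gene.

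All cells were SVEC4-10, a mouse endothelial line derived from lymph node vessels and transformed with SV40. The first array held cells carrying the lentiviral vector pLENTI6/Block-iT with a short hairpin RNA against Mical2, an enzyme that oxidises actin. The second held cells with the same vector and a hairpin against its relative Mical3. The third held cells with the vector lacking an insert, and the fourth untreated cells, which had no vector. All transduced cells were selected with blasticidin, and the control vector carried no hairpin. Each target was addressed with 1 hairpin sequence. Every group had 1 array, on which the RNA of 3 biological replicates had been mixed. Their spread is therefore unknown, no test could be run and p-values are not given.

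Levels are log2 expression values as deposited, and each is compared across arrays within its own probe set, not with the level of another gene. Summed levels of marker lists, which add different probe sets and are weighted toward the brightest, are given only as a description. A gene is called higher or lower when it differed by at least 1 on the log2 scale, which is 2-fold, and its highest compared level reached a floor set at the overall median, 5.41. Calls for a hairpin array needed the same direction from both control arrays. As a rough guide to the spread of 1 difference, the disagreement between 2 probe sets of a gene was taken as a standard deviation, scaled to 1 probe set. This spread was 0.36 for the label Mical2 minus vector, 0.27 for it minus untreated, 0.41 for the label Mical3 minus vector, 0.32 for it minus untreated, 0.28 for vector minus untreated and 0.33 between the hairpin arrays, over 3242 genes with exactly 2 probe sets at the floor. It takes in probe sets of a gene that behave unlike each other, and it leaves out the spread between replicates.

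The targeted transcripts were not clearly lower on the arrays labelled with their own hairpins. One Mical2 probe set read 5.53 on the array labelled Mical2, 6.0 on the array labelled Mical3, 4.64 with the vector and 5.33 untreated, and the other read 5.53, 6.08, 5.14 and 5.6 on those arrays. Mical3 read 6.83 on the array labelled Mical2, 7.24 on the array labelled Mical3, 7.29 with the vector and 7.39 untreated. Neither target was lower by 2-fold on its own hairpin array, so the hairpin arrays are named by their labels, and every direction below is a difference between labelled arrays. Of 16 endothelial markers, 6 reached the floor on some array (Kdr, Flt1, Flt4, Eng, Esam and Pdpn), while 10 did not, among them the defining Pecam1, Cdh5, Tek, Tie1 and Vwf. Flt4 was lower with both hairpin labels (7.66 with the label Mical2, 7.55 with the label Mical3, 8.90 with the vector and 9.18 untreated). Of all genes tested, 1.75% were called lower with the label Mical2 and 2.49% with the label Mical3.

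Chemokines are grouped by the spacing of conserved cysteines into CC, CXC, CX3C and C types. Among CXC ligands, those with the motif Glu-Leu-Arg ahead of the cysteines (ELR) act on CXCR2 and draw neutrophils, and several are known to promote angiogenesis, whereas the ligands of CXCR3 are induced by interferon and draw activated T cells. Endothelial cells are known to make many chemokines after inflammatory signals that act through NF-kB and interferon regulatory factors, and CXCL12 acts through CXCR4 in vessel growth and in holding blood progenitors.

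The start-site regions of 7 ligands are shown first: those that differed from both control arrays on a hairpin array and that the table holds (Cxcl1, Cxcl15, Cxcl12, Ccl9 and Cxcl10), and Cxcl2 and Cxcl3, the close relatives of Cxcl1 that stayed dim. They are the bases just before the annotated start from RefSeq (GRCm38.p6), 5′ to 3′, 120 bases each and 250 for Cxcl10. Of the 33 ligands, 23 had a region in the table, and 13 of those reached the floor on some array. Capitals mark matches, on either strand, to a kappaB form searched as GGGNNNTTCC, an interferon-stimulated response element (ISRE) searched as GAAANNGAAA and an AP-1 element searched as TGANTCA.
Cxcl1 (chr5:90891125-90891244, plus strand): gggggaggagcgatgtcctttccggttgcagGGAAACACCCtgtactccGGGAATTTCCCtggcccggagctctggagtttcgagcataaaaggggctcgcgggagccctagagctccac
Cxcl2 (chr5:90903779-90903898, plus strand): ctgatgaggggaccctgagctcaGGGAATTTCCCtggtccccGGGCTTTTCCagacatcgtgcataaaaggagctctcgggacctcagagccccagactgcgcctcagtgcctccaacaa
Cxcl3 (chr5:90785981-90786100, plus strand): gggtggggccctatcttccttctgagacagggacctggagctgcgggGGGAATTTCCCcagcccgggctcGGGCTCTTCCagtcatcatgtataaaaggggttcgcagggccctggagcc
Cxcl15 (chr5:90794414-90794533, plus strand): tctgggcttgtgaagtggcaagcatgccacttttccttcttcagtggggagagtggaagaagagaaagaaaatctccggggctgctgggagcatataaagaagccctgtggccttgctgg
Cxcl10 (chr5:92348890-92349139, minus strand): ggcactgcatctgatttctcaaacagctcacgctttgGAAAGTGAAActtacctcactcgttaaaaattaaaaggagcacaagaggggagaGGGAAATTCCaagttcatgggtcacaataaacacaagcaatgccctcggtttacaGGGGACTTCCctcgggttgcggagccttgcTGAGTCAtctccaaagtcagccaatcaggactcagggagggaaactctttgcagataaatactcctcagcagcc
Cxcl12 (chr6:117168415-117168534, plus strand): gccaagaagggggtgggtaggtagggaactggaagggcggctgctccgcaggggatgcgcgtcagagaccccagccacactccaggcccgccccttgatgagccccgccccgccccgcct
Ccl9 (chr11:83578637-83578756, minus strand): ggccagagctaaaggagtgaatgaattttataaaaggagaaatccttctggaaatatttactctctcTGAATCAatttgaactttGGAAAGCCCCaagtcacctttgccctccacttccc

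Cxcl1, Cxcl2 and Cxcl3 share the letters GGGAATTTCCC, in which matches to the kappaB form on opposite strands overlap. With -1 as the last base before the start, they lie at -71 to -61 in Cxcl1, -97 to -87 in Cxcl2 and -73 to -63 in Cxcl3. The Cxcl15 and Cxcl12 regions hold none of the letters searched. Cxcl10 holds kappaB matches at -159 to -150 and -104 to -95, an ISRE match at -213 to -204 and an AP-1 match at -74 to -68. Ccl9 holds a kappaB match at -35 to -26 and an AP-1 match at -53 to -47. Over regions of 250 bases, 7 of the 26 regions of the ligands held the kappaB form, against 4.65% of 32851 regions of all genes. The 26 regions belong to 23 ligands, and the 7 include the close relatives Cxcl1, Cxcl2 and Cxcl3, so they are not independent. Ccl2, Ccl5, Ccl7, Cxcl5 and Cxcl11 had no region to search. The ISRE was in 2 of 26, against 2.98%, and the AP-1 form in 3 of 26, against 6.75%. The CArG box, the element bound by SRF, was in 0 of 26, against 1.47%. A match describes letters in a window and is no measurement of binding.

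Of the 33 ligands, 22 reached the floor on some array and 11 stayed below it on all 4. That is 66.7% of the ligands, and 66.9% of all 18193 genes reached the floor. Among the 22, 11 spanned at least 1 on the log2 scale between their lowest and highest array (50%, against 20.2% of the 12166 genes that reached the floor). A span of at least 3 was seen for 4 of the 22 (18.2%, against 1.53%), namely Cxcl15, Cxcl5, Cxcl1 and Cxcl12.

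**Figure D1:**
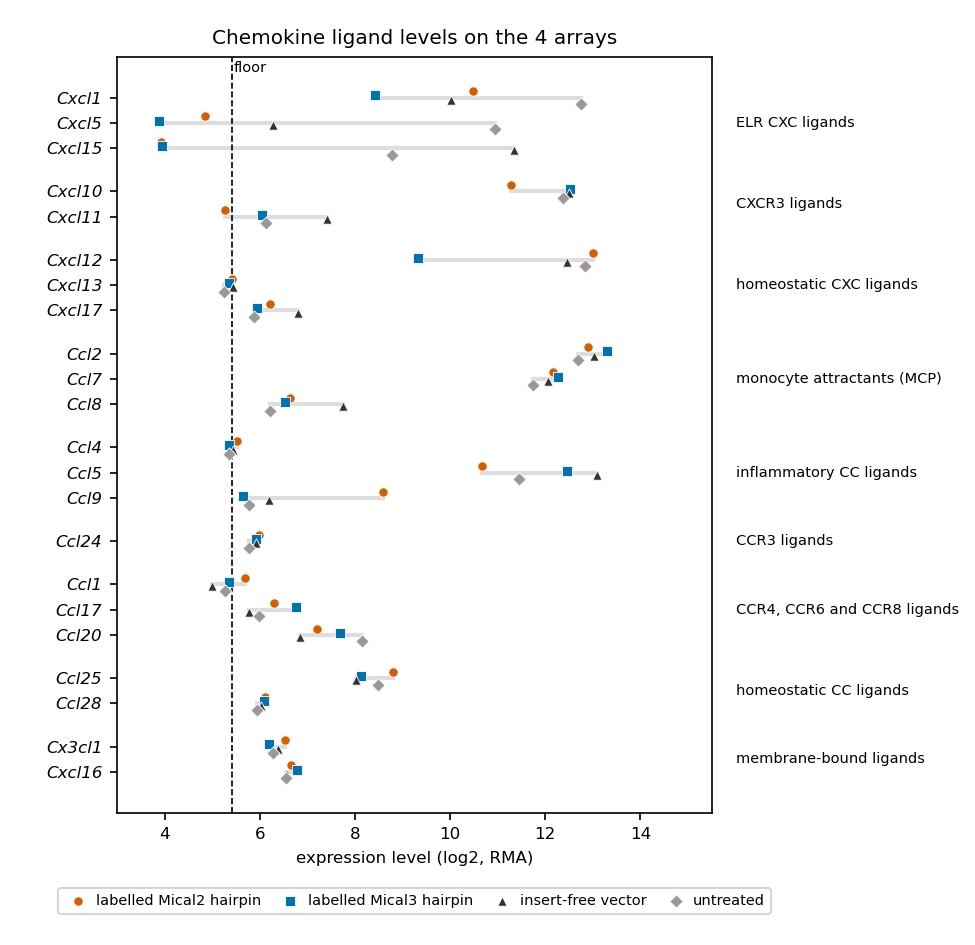
Log2 expression level (x axis) of the 22 chemokine ligands that reached the floor (dashed line, 5.41), grouped by role. Each point is 1 array and the grey bar spans the 4 arrays. Cxcl15, Cxcl5, Cxcl1 and Cxcl12 have the widest bars, with ranges of 7.42, 7.06, 4.33 and 3.68.

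Among the ELR ligands, 3 of 5 reached the floor. Cxcl15, known as lungkine, a mouse attractant of neutrophils described in lung epithelium, read 3.92 on the array labelled Mical2, 3.94 on the array labelled Mical3, 11.34 with the insert-free vector and 8.79 in untreated cells. Both hairpin arrays lay below the floor and both control arrays above it, and the control arrays differed from each other by 2.55. Its second probe set read 4.67 with the label Mical2, 4.67 with the label Mical3, 9.20 with the vector and 6.67 untreated, with the arrays in the same order. Of 8 lung epithelial markers, 4 were below the floor on all 4 arrays (Sftpc, Scgb1a1, Sftpa1 and Cdh1) and 4 reached it. Of those 4, Sftpb lay between 6.29 and 6.53 and Epcam between 6.60 and 7.10, while Krt8 and Krt18, keratins of many simple epithelia, differed between arrays. The log2 of the summed level of the 8 was 9.50 with the label Mical2, 9.59 with the label Mical3, 8.50 with the vector and 9.36 untreated. The part of these markers in the Cxcl15 differences was not tested. In RNA from a whole culture, fewer cells of a type and less RNA per cell cannot be told apart.

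Cxcl5, which attracts neutrophils through CXCR2, read 4.85 on the array labelled Mical2, 3.89 on the array labelled Mical3, 6.28 with the insert-free vector and 10.95 in untreated cells. All 3 transduced arrays were lower than the untreated array, with differences of -6.10 for the label Mical2, -7.06 for the label Mical3 and -4.67 for the insert-free vector. From the vector array the hairpin arrays differed by -1.43 and -2.39. Cxcl5 is read by 1 probe set, so there is no second reading. The same holds for Cxcl10, Ccl5, Ccl8 and Ccl20, given below.

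Cxcl1, known as KC, a neutrophil attractant induced by inflammatory signals, read 10.49 on the array labelled Mical2, 8.42 on the array labelled Mical3, 10.02 with the insert-free vector and 12.75 in untreated cells. Untreated cells were highest and the array labelled Mical3 lowest. One further probe set read 10.40 with the label Mical2, 8.54 with the label Mical3, 9.98 with the vector and 12.74 untreated, and another read 9.44 with the label Mical2, 8.14 with the label Mical3, 9.26 with the vector and 10.06 untreated, with smaller differences and the arrays in the same order. Cxcl2 and Cxcl3 stayed below the floor on all 4 arrays, with Cxcl2 between 3.26 and 3.66 and Cxcl3 between 3.03 and 3.82. Each of these 2 genes is read by 1 probe set without a detection call, so a weak probe set cannot be told apart from little transcript. Their start-site regions hold the same kappaB letters as that of Cxcl1, and the part of those letters in the levels was not tested.

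These 5 ligands lie together on chromosome 5. In the gene order of the RefSeq table they run Cxcl5, Ppbp, Pf4, Cxcl3, Cxcl15, Cxcl1 and Cxcl2. Ppbp and Pf4 encode platelet chemokines and fall outside the symbol rule. Ppbp read 4.94 on the array labelled Mical2, 4.09 on the array labelled Mical3, 4.12 with the insert-free vector and 5.75 in untreated cells. Like Cxcl5 and Cxcl1 it was highest in untreated cells, the 1 array on which it reached the floor. Pf4 read 6.54 with the label Mical2, 5.56 with the label Mical3, 6.22 with the vector and 6.32 untreated, with no 2-fold difference. The next gene after Cxcl2, Mthfd2l, an enzyme of mitochondrial folate metabolism, read 11.07 with the label Mical2, 10.11 with the label Mical3, 10.86 with the vector and 10.37 untreated, and the gene before Cxcl5, Rassf6, read 6.76 with the label Mical2, 5.45 with the label Mical3, 4.11 with the vector and 5.80 untreated. Neither flanking gene was highest in untreated cells, but Rassf6 was lower with the vector than in untreated cells by the 2-fold rule. Afp, farther out on the side of Rassf6, was highest in untreated cells. It read 6.26 with the label Mical2, 6.32 with the label Mical3, 5.60 with the vector and 6.37 untreated.

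**Figure D2:**
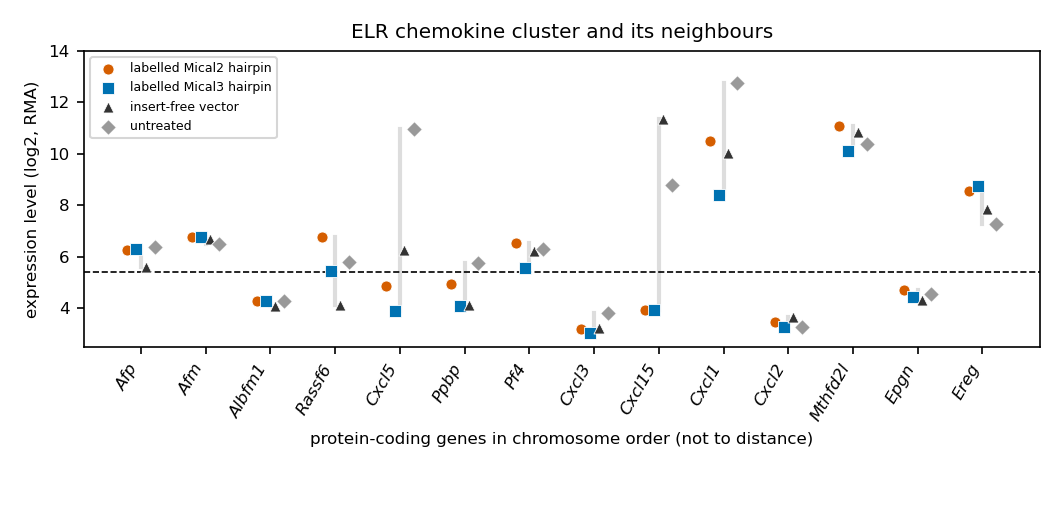
Log2 expression level (y axis) of the ELR chemokine genes and measured neighbouring genes in chromosome order (x axis, not to distance), with 1 point per array and the floor dashed. Cxcl5 and Cxcl1 are highest on the untreated array (10.95 and 12.75), Cxcl15 is highest on the vector array (11.34), and Cxcl3 and Cxcl2 lie below the floor on all 4 arrays.

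Of the 3 CXCR3 ligands, Cxcl10 and Cxcl11 reached the floor. Cxcl10, induced by interferon and NF-kB, read 11.29 on the array labelled Mical2, 12.52 on the array labelled Mical3, 12.51 with the insert-free vector and 12.38 in untreated cells. It was lower with the label Mical2 than elsewhere, and the other 3 arrays lay within 0.14 of each other. On its only probe set the differences were -1.22 from vector and -1.09 from untreated, close to the 2-fold limit. Cxcl11 read 5.27 on the array labelled Mical2, 6.04 on the array labelled Mical3, 7.42 with the insert-free vector and 6.14 in untreated cells, highest with the insert-free vector. RefSeq lists Cxcl11 as a transcribed pseudogene in the C57BL/6J assembly, and its second probe set stayed between 3.38 and 3.72, below the floor. Cxcl9 stayed between 3.96 and 4.18.

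Of 4 homeostatic CXC ligands, 3 reached the floor. Cxcl12, which guides vessels and holds blood progenitors in their niches through CXCR4, read 13.00 on the array labelled Mical2, 9.32 on the array labelled Mical3, 12.46 with the insert-free vector and 12.84 in untreated cells. The array labelled Mical3 stood apart, and the other 3 lay within 0.54 of each other. A second bright probe set read 12.12 with the label Mical2, 8.26 with the label Mical3, 11.95 with the vector and 12.43 untreated, and another, between 5.13 and 5.38, was below the floor and flat. Of 7 fibroblast markers, Col1a2 and Pdgfrb were called lower with the label Mical3, beside Cxcl12, as were 2.49% of all genes tested. Others were not: Dcn read 12.79 with the label Mical3, against 10.52 with the vector and 12.36 untreated, Col1a1 read 11.27, against 10.95 with the vector and 12.99 untreated, and Pdgfra read 7.07, against 6.16 with the vector and 10.40 untreated. The log2 of the summed level of the 7 was 14.83 with the label Mical2, 13.26 with the label Mical3, 12.78 with the vector and 15.25 untreated. Lum and Thy1 were below the floor on all arrays. The part of these markers in the Cxcl12 differences was not tested.

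Cxcl17, a ligand of mucosal tissues, read 6.22 on the array labelled Mical2, 5.95 on the array labelled Mical3, 6.81 with the insert-free vector and 5.88 in untreated cells. Its difference between vector and untreated cells, 0.93, fell short of 2-fold. Cxcl13, a B cell attractant, read 5.41 with the label Mical2, 5.36 with the label Mical3, 5.44 with the vector and 5.24 untreated, all near the floor, and Cxcl14 stayed below it between 4.07 and 4.32.

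Among the monocyte chemoattractant proteins, 3 of 4 reached the floor. Ccl2, a monocyte attractant acting on CCR2, read 12.89 on the array labelled Mical2, 13.30 on the array labelled Mical3, 13.03 with the insert-free vector and 12.69 in untreated cells. Ccl7, which also acts on CCR2, read 12.16 with the label Mical2, 12.27 with the label Mical3, 12.05 with the vector and 11.75 untreated. Neither differed 2-fold between any pair of arrays. Ccl8, in mouse a ligand of CCR8, read 6.64 on the array labelled Mical2, 6.53 on the array labelled Mical3, 7.74 with the insert-free vector and 6.21 in untreated cells, highest with the insert-free vector. Ccl12 stayed between 3.66 and 3.93.

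Among the inflammatory CC ligands Ccl3, Ccl4, Ccl5, Ccl6 and Ccl9, Ccl5 and Ccl9 differed between arrays. Ccl5, an attractant of T cells and monocytes, read 10.67 on the array labelled Mical2, 12.45 on the array labelled Mical3, 13.08 with the insert-free vector and 11.44 in untreated cells. It was highest with the insert-free vector and lowest with the label Mical2. Ccl9, a CCR1 ligand described in mouse myeloid cells and osteoclasts, read 8.59 on the array labelled Mical2, 5.64 on the array labelled Mical3, 6.19 with the insert-free vector and 5.78 in untreated cells. The array labelled Mical2 stood above the other 3, and the second Ccl9 probe set read 8.52 with the label Mical2, 5.17 with the label Mical3, 5.58 with the vector and 5.58 untreated. Of 10 leukocyte markers, Cd14 was higher with the label Mical2 (8.26, against 5.75 with the vector and 7.04 untreated), beside Ccl9. Of all genes tested, 0.977% were called higher there. Csf1r (6.51 to 6.84) and Cd3e (5.80 to 5.89) reached the floor on all arrays, Cd68 did so too (5.93 to 8.0) and Lyz2 on some (5.06 to 5.95), while Ptprc, Itgam, Adgre1, S100a8 and S100a9 were below it on all arrays. The log2 of the summed level of the 10 was 9.41 with the label Mical2, 8.88 with the label Mical3, 9.25 with the vector and 8.84 untreated. Ccl4 read 5.52 with the label Mical2, 5.36 with the label Mical3, 5.43 with the vector and 5.36 untreated, at the floor, while Ccl3 stayed between 3.73 and 3.95 and Ccl6 between 4.31 and 4.88.

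**Figure D3:**
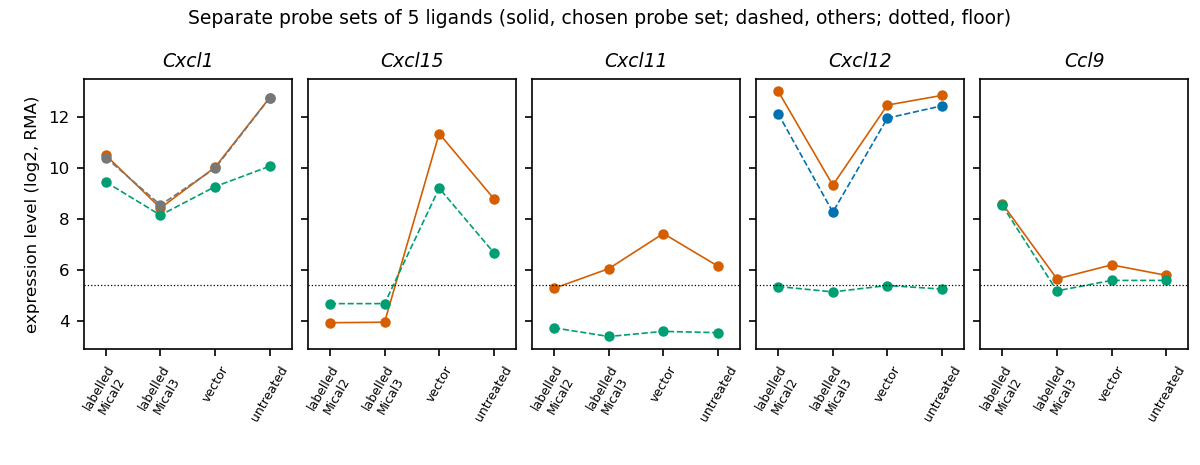
Log2 expression level (y axis) on each array (x axis) for the separate probe sets of 5 ligands, with the chosen probe set solid, the others dashed and the floor dotted. For Cxcl1, Cxcl15, Cxcl12 and Ccl9 at least 1 other probe set follows the chosen one across the arrays, while the second Cxcl11 probe set (3.38 to 3.72) and the dimmest Cxcl12 probe set (5.13 to 5.38) are flat below the floor.

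The other CC ligands at the floor spanned at most 1.30 over the 4 arrays. Ccl20, the CCR6 ligand that draws Th17 cells and immature dendritic cells, read 7.20 on the array labelled Mical2, 7.69 on the array labelled Mical3, 6.85 with the insert-free vector and 8.15 in untreated cells, highest in untreated cells. Ccl17, a CCR4 ligand, read 6.29 with the label Mical2, 6.77 with the label Mical3, 5.77 with the vector and 5.98 untreated. Ccl25, a CCR9 ligand of thymus and gut, read 8.81 with the label Mical2, 8.13 with the label Mical3, 8.03 with the vector and 8.49 untreated. Ccl17 was highest with the label Mical3 and Ccl25 with the label Mical2. Ccl1, a CCR8 ligand, read 5.70 with the label Mical2, 5.35 with the label Mical3, 5.00 with the vector and 5.28 untreated. Ccl24, an attractant of eosinophils through CCR3, read 5.99 with the label Mical2, 5.92 with the label Mical3, 5.92 with the vector and 5.78 untreated. Ccl28, a CCR10 ligand of mucosal surfaces, read 6.12 with the label Mical2, 6.08 with the label Mical3, 6.03 with the vector and 5.95 untreated. Ccl24 and Ccl28 were nearly flat.

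The membrane-held ligands spanned less than 2-fold. Cx3cl1, the fractalkine of endothelium, read 6.53 with the label Mical2, 6.20 with the label Mical3, 6.38 with the vector and 6.27 untreated. A second Cx3cl1 probe set read 6.85 with the label Mical2, 6.51 with the label Mical3, 5.70 with the vector and 6.06 untreated, so the difference of the label Mical2 from the vector was 1.15 there and 0.15 on the chosen probe set. Cxcl16, the CXCR6 ligand, read 6.65 with the label Mical2, 6.78 with the label Mical3, 6.58 with the vector and 6.56 untreated. Ccl11, Ccl22, Ccl27a and Xcl1 stayed below the floor, and over all 11 ligands below it the levels ran from 3.03 to 4.88. The probe sets with several symbols read 5.65 to 5.79 for the Ccl21 genes, 4.87 to 4.90 for Ccl19, and 5.30 to 5.66 and 4.93 to 5.23 for Ccl27a with Ccl27b.

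The design asks which transcripts differ when Mical2 is targeted. With the label Mical2, Ccl9 was called higher, by 2.40 over the vector array and 2.81 over untreated cells. Cxcl15 was called lower (-7.42 from vector and -4.87 from untreated), as were Cxcl5 (-1.43 and -6.10) and Cxcl10 (-1.22 and -1.09). In all, 4 of the 22 ligands tested were called, 1 higher and 3 lower, while 2.73% of the 12072 genes tested were called, 0.977% higher and 1.75% lower. The median difference over the 33 ligands was 0.07 from vector and 0.16 from untreated, against 0.01 over all genes from either control.

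Some ligands passed against 1 control. Ccl5 differed by -2.41 from vector and -0.77 from untreated, and Cxcl11 by -2.15 and -0.87. Ccl8 differed by -1.10 from vector and 0.43 from untreated, and Cxcl1 by 0.47 and -2.26. For these 4 the call depends on the control, and the control arrays themselves differed 2-fold for each.

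With the label Mical3, Cxcl12 was called lower, with differences of -3.14 from vector and -3.52 from untreated. Also lower were Cxcl1 (-1.60 and -4.33), Cxcl5 (-2.39 and -7.06) and Cxcl15 (-7.40 and -4.85). Of the 21 ligands tested, 4 were called lower and 0 higher, while 3.87% of the 12011 genes tested were called, 1.38% higher and 2.49% lower. The median over the 33 ligands was -0.08 from vector and 0.04 from untreated, against 0.00 and 0.02 over all genes. Ccl8 (-1.21) and Cxcl11 (-1.38) passed against vector alone, as did Ccl17 at 1.0, with 0.79 from untreated, and Ccl5 passed against untreated alone (1.01). Both hairpin comparisons share their control arrays, so Cxcl15 and Cxcl5 in each are not separate evidence.

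**Figure D4:**
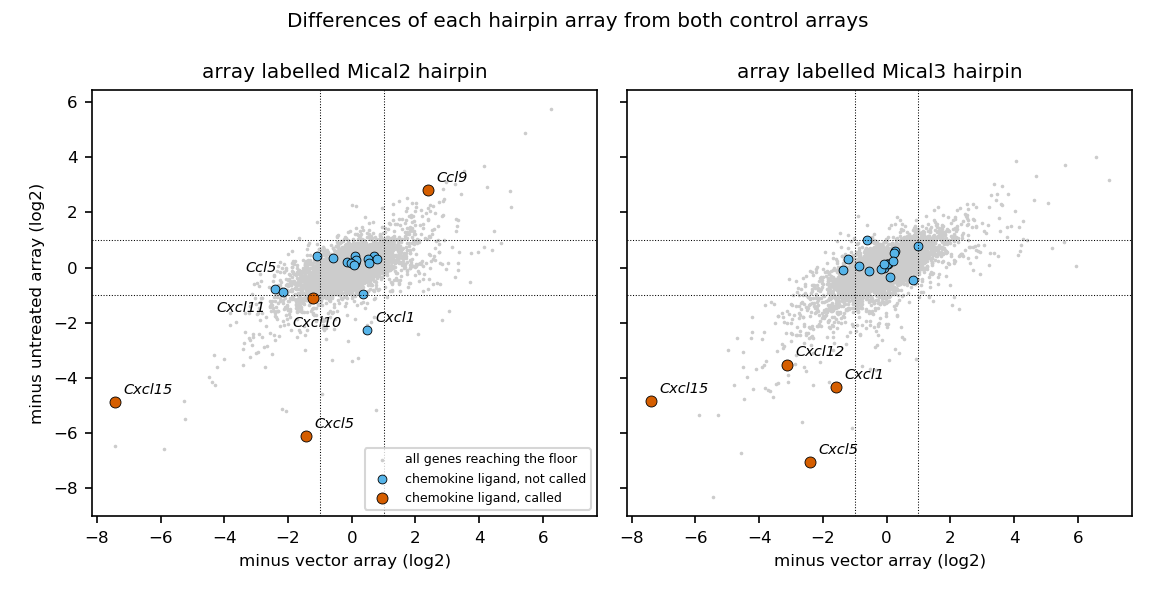
Difference of each hairpin array from the vector array (x axis, log2) and from the untreated array (y axis, log2), with all genes that reached the floor in grey, uncalled chemokine ligands in blue and called ones in orange. Dotted lines mark 2-fold. Ccl9 lies at the upper right on the left panel (2.40 and 2.81), and Cxcl12 at the lower left on the right panel (-3.14 and -3.52).

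The vector array was also set against untreated cells, which had no vector. With 1 array each, transduction and selection cannot be told apart from other differences between the cultures. Of the 21 ligands tested, 7 were called, while 5.83% of the 11849 genes tested were called, 3.26% higher and 2.57% lower. Higher with the vector were Cxcl15 (2.55), Ccl5 (1.64), Ccl8 (1.53) and Cxcl11 (1.28). Lower were Cxcl5 (-4.67), Cxcl1 (-2.73) and Ccl20 (-1.30). The ELR ligands thus stood on both sides. The median over the 33 ligands was 0.10, against 0.02 over all genes.

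The hairpin arrays were also set against each other, since both carry a hairpin in the same vector. Of the 20 ligands tested, 5 were called, while 7.53% of the 11928 genes tested were called, 3.81% higher and 3.72% lower. Cxcl12 (3.68), Ccl9 (2.95) and Cxcl1 (2.07) were higher with the label Mical2 than with the label Mical3, and Ccl5 (-1.78) and Cxcl10 (-1.23) were lower. Cxcl5 differed by 0.96 with both levels below the floor, and Cxcl15 by -0.02. The median over the 33 ligands was 0.08, against 0.00 over all genes.

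**Figure D5:**
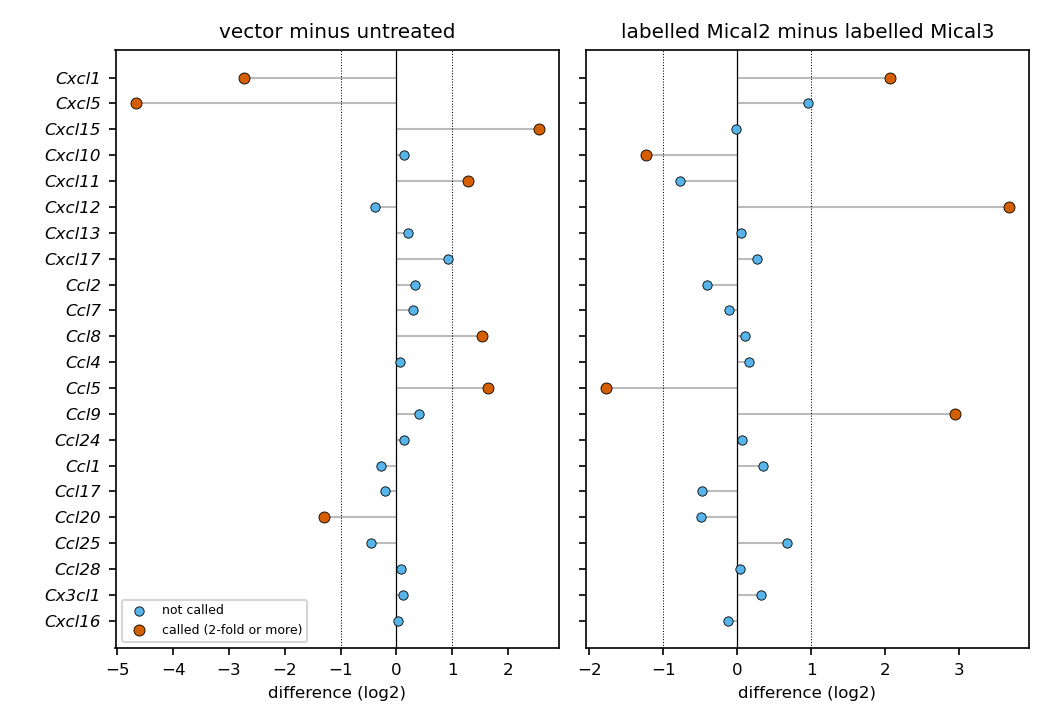
Log2 difference (x axis) for the 22 ligands that reached the floor, with vector minus untreated on the left and the array labelled Mical2 minus the array labelled Mical3 on the right. Orange points were called at 2-fold or more (dotted lines). Cxcl5 (-4.67) and Cxcl15 (2.55) lie at the ends of the left panel, and Cxcl12 (3.68) and Ccl5 (-1.78) at those of the right.

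The receptors of these ligands were mostly dim. Of 18 measured chemokine receptors, 15 stayed below the floor on all arrays, including Cxcr2, Cxcr3 and Cxcr4, the receptors of most ELR ligands, of Cxcl10 and of Cxcl12. Ccr10, Ccrl2 and Cx3cr1 reached the floor, and 0 of the 18 were called in any of the 4 comparisons, in which 2.73% to 7.53% of all genes tested were called. With 3 receptors at the floor, 0 calls does not set them apart from other genes. Of 4 atypical receptors, which bind chemokines without driving migration, 3 reached the floor and 0 were called, again too few to read against those shares. Ackr4, a scavenger of Ccl25 and the CCR7 ligands, read 6.92 with the label Mical2, 7.40 with the label Mical3, 6.57 with the vector and 6.82 untreated. Ackr3, the scavenger of Cxcl12, read 3.62 with the label Mical2, 3.25 with the label Mical3, 3.58 with the vector and 5.13 untreated, below the floor throughout.

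Genes known to act upstream of chemokine transcription were called by the same rule. Of all genes tested, 2.73% were called for the label Mical2 and 3.87% for the label Mical3. The shares were 5.83% for vector against untreated and 7.53% between the hairpin arrays, and they apply to each list below. Of 13 measured NF-kB factors and inhibitors, Nfkbie, an inhibitor, was lower with the label Mical2 (7.89, against 9.47 with the vector and 9.47 untreated). Bcl3, a nuclear cofactor, was lower with the label Mical3 (5.85, against 7.65 with the vector and 8.01 untreated). With the vector, Ikbkg, a subunit of the kinase that frees NF-kB, was higher (9.91, against 8.68 untreated) and Nfkbiz lower (7.99, against 9.47 untreated). Between the hairpin arrays Bcl3 was higher with the label Mical2 (7.67, against 5.85 with the label Mical3), and Rela (10.27, against 11.27 with the label Mical3) and Nfkbie (7.89, against 9.70 with the label Mical3) were lower.

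Of 11 interferon signalling factors, Irf7 (9.56, against 7.78 untreated) and Stat2 (8.06, against 7.06 untreated) were higher on the vector array, beside Ccl5, Ccl8 and Cxcl11. The other CXCR3 ligands did not differ there: Cxcl10 read 12.51, against 12.38 untreated, and Cxcl9 read 3.96, against 4.18 untreated, below the floor. None of the 11 factors was called on a hairpin array against both controls. There, 2.73% of all genes tested were called for the label Mical2 and 3.87% for the label Mical3. With 11 factors, 0 calls does not set them apart from other genes. Some were 2-fold lower than on the vector array alone. Among them, Stat2 read 6.44 with the label Mical2 and 6.27 with the label Mical3, and Irf7 read 7.67 with the label Mical2. Of 14 inflammatory cytokines, Il33 (8.54, against 11.14 untreated) and Il6 (6.71, against 8.68 untreated) were lower on the vector array, beside Cxcl1, Cxcl5 and Ccl20. None of the 14 cytokines, of which 9 reached the floor, was called on a hairpin array against both controls, again too few to read against those shares. The part of these genes in the ligand differences was not tested.

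Of 15 receptors and adaptors of inducing signals, Tlr2, a receptor of bacterial lipoproteins, was higher with the label Mical2 (7.0, against 5.26 with the vector and 5.92 untreated), and Tlr3, the receptor of double-stranded RNA, was lower (6.39, against 8.65 with the vector and 7.50 untreated). Il1r1, the interleukin-1 receptor, was lower with the label Mical3 (6.97, against 8.32 with the vector and 8.10 untreated). Tlr3 (8.65, against 7.50 untreated) and Tlr4 (8.79, against 7.55 untreated) were higher on the vector array. Between the hairpin arrays, Tlr2, Il1r1 and Tnfrsf1b, a receptor of tumour necrosis factor (8.61, against 7.34 with the label Mical3), were higher with the label Mical2.

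Of 9 proteases and sheddases, Mmp2, which can cleave Cxcl12, was higher with the label Mical2 (8.09, against 6.64 with the vector and 7.06 untreated). Mmp3 was lower with the label Mical3 (4.60, against 7.44 with the vector and 7.03 untreated), and Mmp13 was higher on the vector array (8.47, against 7.42 untreated). Mmp2 and Mmp3 were both higher with the label Mical2 than with the label Mical3. Of 11 genes of heparan sulfate, the sugar that holds chemokines at the endothelial surface, Sulf1, a sulfatase, was lower with the label Mical2 (4.71, against 9.95 with the vector and 10.19 untreated). Gpc1, a core protein, was lower with the label Mical3 (6.25, against 9.22 with the vector and 8.65 untreated). Between the hairpin arrays, Gpc1 and Sdc1 (11.69, against 10.67 with the label Mical3) were higher with the label Mical2 and Sulf1 was lower (4.71, against 10.60 with the label Mical3).

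Markers of other cell types also differed on the vector array, where 7 ligands were called. All 5 fibroblast markers at the floor (Col1a1, Col1a2, Pdgfra, Pdgfrb and Dcn) were called lower than in untreated cells. In that comparison 2.57% of the 11849 genes tested were called lower and 3.26% higher. Cd68 was higher (8.0, against 5.93 untreated) and Cd14 lower (5.75, against 7.04 untreated), and Krt8 (6.42, against 8.27 untreated) and Krt18 (4.84, against 5.85 untreated) were lower. Between the hairpin arrays, Col1a2, Pdgfra, Pdgfrb and Cd14 were higher with the label Mical2, and Krt18 was higher with the label Mical3 than on both control arrays (7.41, against 4.84 with the vector and 5.85 untreated). The part of these markers in the ligand differences was not tested.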

How the data were processed

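RNA from SVEC4-10 cells was measured on 4 arrays, 1 per group. The authors deposited log2 expression values per probe set and array, made with RMA per the submitters' processing notes, with no version stated there. No scaling was added. Of 45101 probe sets, 34945 carry 1 gene symbol, updated by Entrez identifier through a RefSeq table of GRCm38.p6, which matched 34741. With 1 array per group there was no test, and the size rule was applied over all genes. The number of arrays limits the precision.

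The members and lists were chosen with earlier results of these data known. Ligands at the floor are named with 4 levels and the rest by range. Of 13 other lists, called members and a few of the brightest are named. The code of the rule was run on simulated data with little noise and planted differences above the 2-fold limit. Such a run checks the code and cannot show the error rate on these arrays. Alternatives covered the control used, a fold of 1.5 or 3, no floor or the 75th percentile, the choice of probe set, repeated quantile normalization, loess, and 16 added before taking logs. Tools were Python 3.11.15, numpy 2.4.6, pandas 2.3.3, statsmodels 0.14.6 and matplotlib 3.10.9.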

Additional observations from a re-analysis of the deposited data

How the results depend on the processing

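The same ligands were called in all 4 comparisons under repeated quantile normalization, loess and 16 added on the linear scale. They were also the same with no floor and with the most variable probe set per gene. Leaving out probe sets whose names mark shared sequence could change no call, because no ligand at the floor was represented by such a probe set. Ccl5, Ccl8, Ccl20, Cxcl5 and Cxcl10 have 1 probe set each, so choosing or averaging probe sets could not change their calls. Averaging probe sets removed Cxcl11 from the vector calls and changed no other call, and a floor at the 75th percentile removed Ccl8 and Cxcl11 there. At 1.5-fold, 6 ligands were called for the label Mical2 (adding Ccl5 and Cxcl11, both lower), 5 for the label Mical3 (adding Ccl17, higher), 8 for vector against untreated (adding Cxcl17, higher) and 7 between the hairpin arrays (adding Ccl25, higher, and Cxcl11, lower). The mean control gave 6 for the label Mical2, with the same additions, and the same 4 for the label Mical3. At 3-fold, 2 ligands were called for the label Mical2 (Ccl9 and Cxcl15) in place of 4, 4 for vector against untreated in place of 7, and 4 between the hairpin arrays in place of 5, with the same 4 for the label Mical3. Against the vector array alone, 7 ligands were called for each hairpin label in place of 4, and against the untreated array alone, 5 for each. Over all genes the calls for the label Mical2 were 329, against 1286 with vector alone, 632 with the mean control, 979 at 1.5-fold, 112 at 3-fold, 206 with the higher floor and 218 with averaged probe sets. For the label Mical3 they were 465, against 1402 with vector alone, 862 with the mean control, 1323 at 1.5-fold and 163 at 3-fold. For vector against untreated they were 691, against 2084 at 1.5-fold, 195 at 3-fold and 446 with the higher floor, and between the hairpin arrays 898, against 2287, 375 and 579. Of 792 recomputed differences of single ligands, 42 moved by more than the spread between probe sets, and 0 called ones changed sign. Why the 42 moved was not tested. Many of the 792 could not move, namely those without shared-sequence probe sets and those that chose or averaged probe sets of a ligand with 1 probe set. The 42 of 792 is therefore no measure of stability. No paired analysis was possible because each group has 1 array, and for the same reason no replicate could be left out. Levels below the floor carry no detection call, so the size of a difference that ends there, as for Cxcl15 and Cxcl5, is uncertain.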
